A study of Mus musculus with 4 samples.

Results

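Among the cells of CT26 tumours that remained after selection for CD45, a surface protein of leukocytes, 62 barcodes carried the messenger RNAs of fibrillar collagen. They were chosen by a marker rule from 27447 barcodes, each with 200 or more detected genes and with less than 15% mitochondrial unique molecular identifiers (UMIs, each standing for 1 captured RNA molecule). The rule asked for at least 10 UMIs of Col1a1, Col1a2 and Col3a1 per 10000 UMIs of the cell and at least 5 in all. It also asked for fewer than 10 UMIs of the complement genes C1qa, C1qb and C1qc per 10000, at most 1 UMI of the T cell receptor genes Cd3d and Cd3e, and under 1% of UMIs from the neutrophil genes S100a8 and S100a9. Since measured values of these genes chose the cells, the contrast between the gated cells and all others is given as a description and was not tested. The working label for the gate is tumour fibroblasts, and a cluster of 12 of the 62 cells fits it by its other genes. Of the other 50, 48 had UMIs of Aspn, Ogn or Mgp, which led most of these cells. Such UMIs were also found in 7 of the 12, where the summed level of each gene was lower. 1 cell of the 50 had fibroblast genes and no UMI of Aspn, Ogn or Mgp.

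CT26 is a colon carcinoma line of Balb/c origin that is grown as an implanted tumour in Balb/c mice. The liproxstatin group (2 libraries) came from tumour-bearing mice aged 9 weeks that were given liproxstatin-1, an inhibitor of ferroptosis, for 8 days. The control group (2 libraries) came from tumour-bearing Balb/c mice of the same age, and the labels do not say what they received in place of the drug, nor the sex of the mice or how many mice stand behind a library. The comparison asks how inhibition of ferroptosis alters the cells of the tumour. Nothing states that the 2 libraries of a group are separate animals, so the p-values speak only of library-to-library spread, part of which may be technical.

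Fibroblasts build the connective tissue of a tumour. They secrete collagen chains that are hydroxylated and folded in the endoplasmic reticulum, trimmed outside the cell and then crosslinked by lysyl oxidases, and they add small leucine-rich proteoglycans that set the spacing of collagen fibrils. Tumour fibroblasts are often grouped as contractile cells that contain smooth muscle actin or as inflammatory cells that secrete chemokines. Ferroptosis is a cell death by iron-driven oxidation of membrane lipids, which is held back by the lipid peroxidase Gpx4, by glutathione and by iron storage in ferritin. Fibroblasts do not carry CD45, so their share in a selected suspension reflects what the selection let through, and it is not the share of fibroblasts in the tumour.

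The 4 matrices held 29092 barcodes, and totals ran from 83129874 to 168597163 UMIs per library. The rule found 5 and 21 cells in liproxstatin replicates 1 and 2, and 7 and 29 cells in control replicates 1 and 2. Gated cells were deep, with median UMI counts of 39862 and 24597 in the liproxstatin libraries and 33174 and 41871 in the control libraries. The medians of the other kept barcodes were 17113 and 16263 in liproxstatin replicates 1 and 2, and 17063 and 20265 in control replicates 1 and 2. Between 4 and 22 barcodes occurred in both libraries of a pair, and 0 of them were gated cells. 2 of the 62 cells were called doublets.

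The position of the gate mattered for who was counted. 2633 kept barcodes had at least 1 UMI of the 3 collagen genes, 266 had at least 5, and 71 also reached 10 per 10000 UMIs. 9 of those 71 failed the C1q condition and 0 failed the T cell or neutrophil condition. Just inside the collagen threshold, at 10 to 15 per 10000, lay 30 cells, of which 28 had Aspn and 28 had Ogn. Just outside, at 7 to 10 per 10000, with the other conditions met, lay 29 cells, of which 19 had Aspn and 21 had Ogn. Cells with Aspn and Ogn thus lay on both sides of the threshold.

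Genes outside the rule with the highest ratio of the gated cells to all other kept barcodes were, in order of the lowest ratio over the 4 libraries, Col6a3, Aspn, Fstl1, Islr, Ogn, Bgn, Thbs2, Fzd2, Omd, Col6a1, Mmp3, Prelp, Apod, Mgp and Slit3. Most encode proteins of the extracellular matrix. Aspn had 611 and 1070 counts per 1000000 UMIs (CPM) in gated cells of liproxstatin replicates 1 and 2 and 1010 and 355 CPM in those of control replicates 1 and 2. All other kept barcodes had between 0.880 and 3.04 CPM of Aspn.

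The C1q-positive macrophages of the same libraries, which should lack these genes, were taken as a guide to free RNA, which was not measured itself. Col1a1 was found in 2.67% to 4.36% of them, Aspn in 0.707% to 1.75% and Mgp in 6.08% to 15.9%, over libraries with median depths of 24026 to 32052 UMIs. Among the gated cells of the 4 libraries, Aspn was found in 60.0% to 85.7% and Mgp in 40% to 85.7%. Aspn and Mgp were picked for a high ratio of gated cells to all other kept barcodes, which include these macrophages. The gap is thus a description and no test of free RNA.

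Graph clustering of the 62 cells parted 12 of them from the other 50. The split was chosen after the cells had been seen, and it describes these cells without a test. The same 12 cells came out at Leiden resolutions of 0.5 and 1, with or without the rule's genes and Thy1, and 11 of them at a resolution of 2. How the other 50 divided further changed with the setting and is not used. Of the clusters, that of the 12 was picked as the one with the largest share of cells with a Thy1 UMI. The 12 cells had a median of 94.99 UMIs of the 3 collagen genes per 10000 and are called collagen-high here. The 50 had a median of 14.4 and are called collagen-low.

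Collagen-high cells numbered 2 and 2 in liproxstatin replicates 1 and 2, and 0 and 8 in control replicates 1 and 2. The count of 0 among 3881 kept barcodes of control replicate 1 allows a share of up to 0.0773%. Collagen-low cells numbered 3 and 19 in liproxstatin replicates 1 and 2, and 7 and 21 in control replicates 1 and 2. Median depth was 51650 UMIs in collagen-high and 29563 UMIs in collagen-low cells, and the median mitochondrial share was 1.15% and 4.53% in the same order. Both doublets were collagen-low cells. 1 collagen-low cell of control replicate 2, with 9796 UMIs, went against its class. It had the highest collagen level of the class (48.0 per 10000), 9 UMIs of Thy1, 18 of Lum, 19 of Tnc, 4 of Cxcl12 and 20 of Timp1, and 0 of Aspn, Ogn, Omd, Mgp and Rhox5. It was left where the clustering placed it, and the Tnc and Cxcl12 UMIs of the collagen-low class all came from it.

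**Figure D1:**
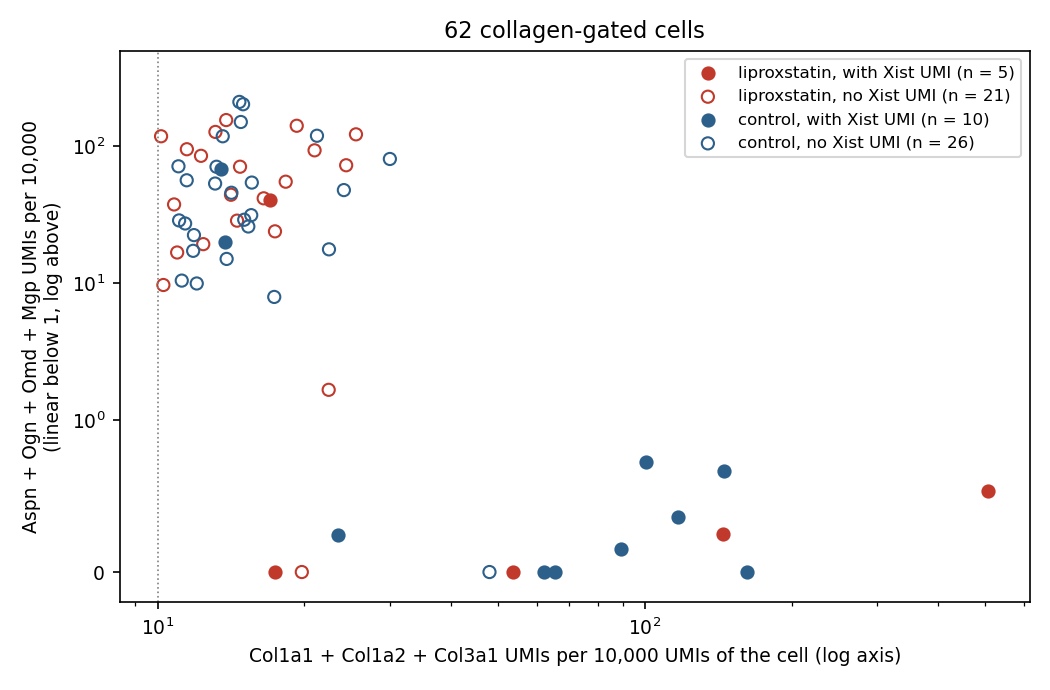
Each point is 1 of the 62 gated cells, with collagen UMIs per 10000 on a log axis against the summed Aspn, Ogn, Omd and Mgp UMIs per 10000 on an axis that is linear below 1 and log above. Liproxstatin cells are red and control cells blue, filled where the cell had an Xist UMI and open where it had none, and the dotted line is the collagen threshold of 10. Cells with much collagen mostly had Xist and had almost no Aspn, Ogn, Omd or Mgp, and cells near the threshold mostly had these 4 genes and no Xist.

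Of 4819 genes with at least 50 UMIs over the gated cells, 454 (9.42%) had at least 2-fold higher CPM + 10 in collagen-high than in collagen-low cells, and 459 (9.52%) had at least 2-fold lower values. In the 3 libraries that held both kinds, 377 of the 454 and 402 of the 459 pointed the same way in all 3. These counts come from the cells that were clustered, so they describe the 2 kinds and test nothing.

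Of the 20 fibroblast marker genes outside the rule, 20 were detected in collagen-high and 19 in collagen-low cells, so detection did not part the kinds. The collagen-high cells are called fibroblast-like by the levels of the list. Of 19 measured members, 16 were at least 2-fold higher in collagen-high and 1 in collagen-low cells, beside 9.42% and 9.52% of all genes. The 20 genes summed to 28399 CPM in collagen-high cells, 10203 CPM in collagen-low cells and 3858 CPM in the other kept barcodes. Thy1, a surface glycoprotein of many fibroblasts and of T cells, picked the collagen-high cluster, so its counts describe that choice. It had UMIs in 12 of 12 collagen-high and in 3 of 50 collagen-low cells. Of those 3 cells, 1 had 1 Thy1 UMI, 1 was the cell of 9796 UMIs with 9, and 1 was a called doublet with 9 Thy1 and 335 Gzma UMIs. Among the C1q macrophages, 3.63% to 6.35% per library had a Thy1 UMI. After each cell was thinned to 9500 UMIs, Thy1 remained in 11 of 11 collagen-high and 1 of 48 collagen-low cells.

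Levels of the rule's own collagen genes describe the cells they chose. Col1a1, which encodes the alpha1 chain of type I collagen, had 7968 and 3361 CPM in collagen-high cells of liproxstatin replicates 1 and 2 and 2540 CPM in those of control replicate 2. In collagen-low cells it had 163 and 80.0 CPM in liproxstatin replicates 1 and 2, and 205 and 112 CPM in control replicates 1 and 2. The lowest collagen-high library thus exceeded the highest collagen-low library. Col1a2, the partner chain, differed less, with 4374 CPM in collagen-high and 1107 CPM in collagen-low cells over all libraries. Col3a1, the chain of type III collagen, had 5936 CPM in collagen-high and 388 CPM in collagen-low cells.

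Without those 3 genes, 10 of 13 measured members of the collagen list were at least 2-fold higher in collagen-high cells and 0 in collagen-low cells. Over all genes these shares were 9.42% and 9.52%. The 15 members outside the rule summed to 7206 CPM in collagen-high and 680 CPM in collagen-low cells. Col12a1, a chain that decorates the fibril surface, had 1672 CPM in collagen-high and 6.58 CPM in collagen-low cells. Col5a2, a chain of type V collagen, had 1239 CPM and 3.95 CPM in the same order, and UMIs of it occurred in 12 of 12 and 3 of 50 cells. Collagen-low cells kept the network chain Col4a1 at 163 CPM, against 475 CPM in collagen-high cells.

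The enzymes that finish collagen divided in the same way. 13 of 16 measured genes of processing and crosslinking were at least 2-fold higher in collagen-high cells and 0 in collagen-low cells. The shares of all genes were 9.42% and 9.52%. Lox, a lysyl oxidase, had 296 CPM in collagen-high and 0.658 CPM in collagen-low cells, where 1 UMI was found in 50 cells. Loxl1, its relative, had 547 CPM in collagen-high and 1.97 CPM in collagen-low cells. Adamts2, the protease that removes the amino-terminal propeptide, had 580 CPM in collagen-high and 1.97 CPM in collagen-low cells. Serpinh1, the collagen chaperone, was present in both kinds, at 984 CPM in collagen-high and 259 CPM in collagen-low cells. Pcolce, an enhancer of the carboxy-terminal propeptide protease, was higher in collagen-low cells, at 475 CPM in collagen-high and 674 CPM in collagen-low cells, a difference of under 2-fold.

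14 of 17 measured proteoglycan and matricellular genes were at least 2-fold higher in collagen-high cells, beside 9.42% of all genes. Tnc, which encodes the adhesion-modulating protein tenascin C, had 669 and 1004 CPM in collagen-high cells of liproxstatin replicates 1 and 2 and 2769 CPM in those of control replicate 2. Collagen-low cells had 12.5 CPM of Tnc, all 19 UMIs in the cell of 9796 UMIs. Sparc, a collagen-binding glycoprotein, had 3579 CPM in collagen-high and 245 CPM in collagen-low cells. Dcn, which encodes decorin, was shared, with 8945 CPM in collagen-high and 2054 CPM in collagen-low cells and UMIs in 12 of 12 and 49 of 50 cells. Ogn was the 1 member of the list that was at least 2-fold higher in collagen-low cells, beside 9.52% of all genes.

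Inhibitors and proteases of the matrix were led by Timp1, the secreted inhibitor of metalloproteinases. It had 5096 CPM in collagen-high and 167 CPM in collagen-low cells. Mmp2, a gelatinase, had 468 CPM in collagen-high and 3.29 CPM in collagen-low cells. Mmp3 (stromelysin) rested on few cells, since 123 of its 349 UMIs lay in 1 collagen-low cell of liproxstatin replicate 2.

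Chemokines and cytokines of inflammatory fibroblasts were at least 2-fold higher in collagen-high cells for 9 of 13 measured members and in collagen-low cells for 0. For all genes the shares were 9.42% and 9.52%. Cxcl12, the ligand of Cxcr4, had 853 and 851 CPM in collagen-high cells of liproxstatin replicates 1 and 2 and 600.0 CPM in those of control replicate 2. It had UMIs in 12 of 12 collagen-high cells and in 1 of 50 collagen-low cells, again the cell of 9796 UMIs. Il33, an alarmin of the interleukin 1 family, had 734 CPM in collagen-high and 1.32 CPM in collagen-low cells. Cxcl14 had 1129 CPM in collagen-high and 8.55 CPM in collagen-low cells. Ccl2, a monocyte attractant, did not part the kinds, with 1315 CPM in collagen-high and 1161 CPM in collagen-low cells, and with 2177 CPM in the other kept barcodes.

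Of 8 measured contractile genes, 5 were at least 2-fold higher in collagen-high cells and 0 in collagen-low cells, beside 9.42% and 9.52% of all genes. The list summed to 1919 and 2074 CPM in collagen-high cells of liproxstatin replicates 1 and 2 and 5309 CPM in those of control replicate 2. Acta2 and Tagln rested on few cells. Acta2, which encodes smooth muscle actin, had 699 UMIs over the gated cells, of which 554 (79.3%) lay in 1 collagen-high cell of control replicate 2. That library also held the cell with 546 of the 662 Tagln UMIs (82.5%). Postn, the periostin gene, was more even, with 184 and 218 CPM in collagen-high cells of liproxstatin replicates 1 and 2 and 210 CPM in those of control replicate 2. Of 10 markers of pericytes and vascular smooth muscle, 6 were at 0 in all gated cells, among them Rgs5, Cspg4 and Myh11.

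**Figure D2:**
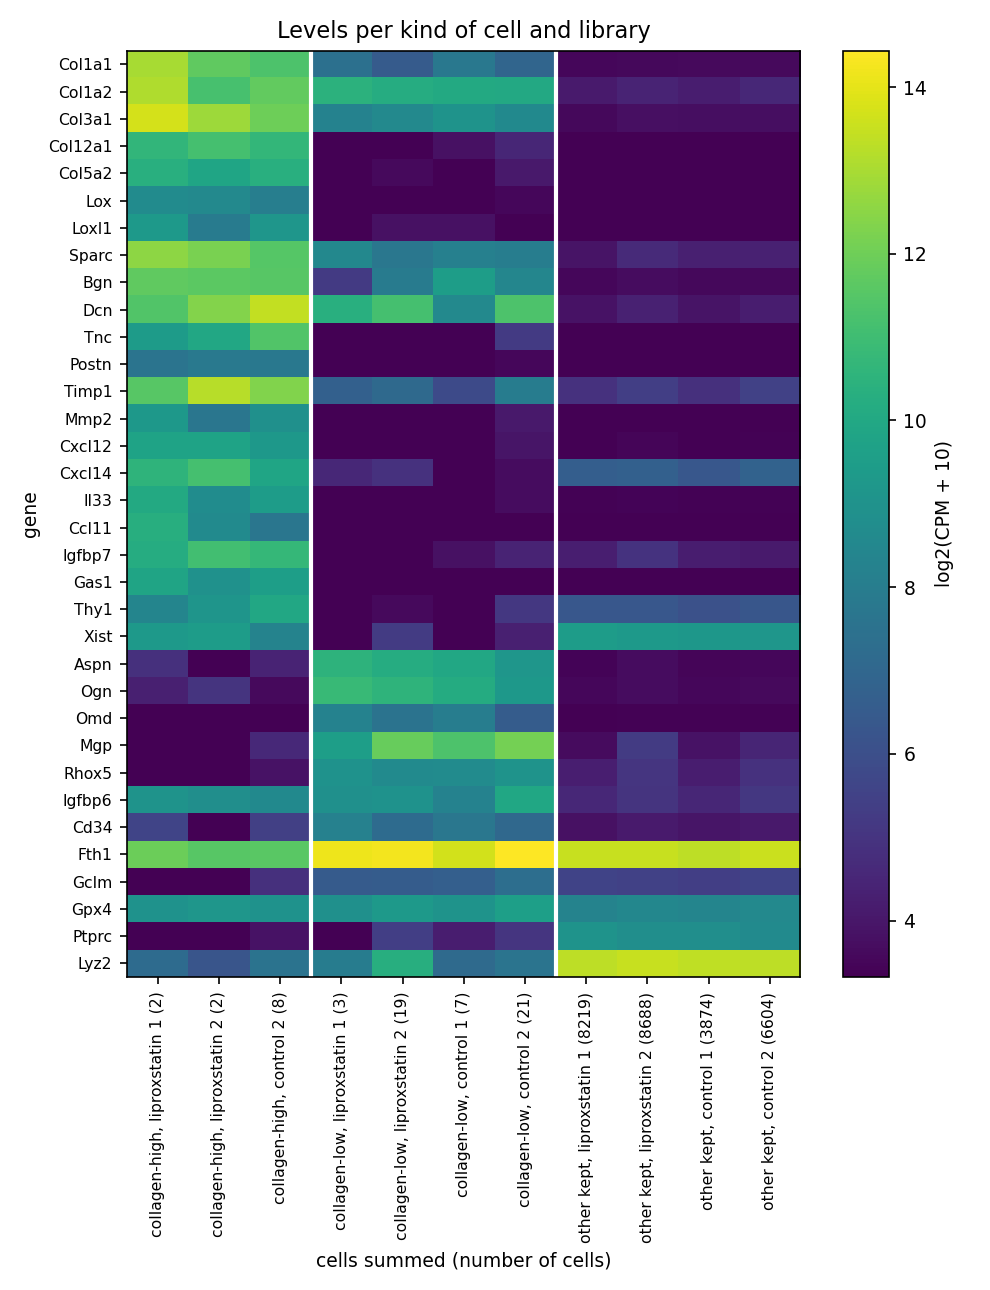
Colour gives log2(CPM + 10) of 34 genes in summed collagen-high cells, collagen-low cells and all other kept barcodes, by library, with the number of cells in brackets. Collagen, crosslinking and chemokine genes were high in the 3 collagen-high columns, and Aspn, Ogn, Omd, Mgp and Rhox5 in the 4 collagen-low columns.

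The collagen-low cells were led by genes of another set. Aspn, Ogn and Omd encode asporin, osteoglycin and osteomodulin, small leucine-rich proteoglycans, and Mgp encodes matrix Gla protein, an inhibitor of calcification. Ogn had 1764 and 1488 CPM in collagen-low cells of liproxstatin replicates 1 and 2, and 1139 and 606 CPM in those of control replicates 1 and 2. Aspn had 1438 and 1168 CPM in the liproxstatin and 1010 and 561 CPM in the control libraries. Omd had 298 and 178 CPM in the liproxstatin and 253 and 84.2 CPM in the control libraries. For Aspn and Ogn both liproxstatin libraries lay above both control libraries, without passing the adjusted test described further on, and Omd overlapped. Mgp had 746 and 3742 CPM in the liproxstatin and 2539 and 4465 CPM in the control libraries, with the lowest value in the library of 3 cells.

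Within single cells, Aspn and Ogn were found together in 43 of 50 collagen-low cells and in 1 of 12 collagen-high cells. All 3 proteoglycan genes were found in 33 collagen-low and 0 collagen-high cells. Mgp had a median of 25.1 UMIs per 10000 in collagen-low cells, from 0 in 8 cells to 201 in the highest. 2 collagen-low cells had no UMI of Aspn, Ogn or Mgp. At least 1 of these 3 genes was found in 48 of 50 collagen-low and 7 of 12 collagen-high cells.

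The 3 proteoglycan genes are neighbours on mouse chromosome 13 (GRCm38, plus strand). Aspn (ENSMUSG00000021388) spans 49544443 to 49567565, Omd (ENSMUSG00000048368) spans 49582462 to 49592822, and Ogn (ENSMUSG00000021390) spans 49608046 to 49624501. The gap is 14896 bases between Aspn and Omd and 15223 bases between Omd and Ogn. Ecm2, the next gene upstream of Aspn (49504810 to 49532789), had 2 UMIs in collagen-high and 12 UMIs in collagen-low cells. The high levels were therefore not shared by the whole run of neighbours.

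The 250 bases before the RefSeq start of each of the 3 genes are shown because these genes were found together in single cells. They come from RefSeq, build GRCm38.p6, plus strand, at chr13:49544193-49544442 for Aspn, chr13:49582212-49582461 for Omd and chr13:49607765-49608014 for Ogn. The RefSeq start of Ogn lies upstream of the GENCODE start given above, so its window does not reach that start. The windows are written 5′ to 3′ with capitals on the E-box CANNTG, which reads as itself on the other strand.
Aspn: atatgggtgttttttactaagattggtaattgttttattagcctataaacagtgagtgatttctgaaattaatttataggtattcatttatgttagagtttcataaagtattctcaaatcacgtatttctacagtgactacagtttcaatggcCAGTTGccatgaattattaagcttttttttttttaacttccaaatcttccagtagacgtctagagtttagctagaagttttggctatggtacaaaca
Omd: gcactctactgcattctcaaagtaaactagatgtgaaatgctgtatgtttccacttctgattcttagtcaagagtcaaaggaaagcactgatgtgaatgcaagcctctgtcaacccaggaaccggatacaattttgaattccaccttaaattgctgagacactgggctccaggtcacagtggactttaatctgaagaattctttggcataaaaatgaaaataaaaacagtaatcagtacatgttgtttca
Ogn: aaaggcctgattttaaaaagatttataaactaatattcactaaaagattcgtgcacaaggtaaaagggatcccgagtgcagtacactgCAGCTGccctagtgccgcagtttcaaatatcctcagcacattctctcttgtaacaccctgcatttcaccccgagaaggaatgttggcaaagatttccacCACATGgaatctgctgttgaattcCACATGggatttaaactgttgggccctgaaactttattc
CANNTG occurred 1 time before Aspn, 0 times before Omd and 3 times before Ogn. It occurs in 66.2% of all 32851 promoter windows of this length, so its presence does not mark the genes. TATAAA on either strand occurred 2 times before Aspn, 0 times before Omd and 2 times before Ogn, and is in 12.4% of the windows. CCAAT on either strand occurred 1 time before Aspn and 0 times before Omd and Ogn, and is in 33.8% of the windows. A match of these letters is a description of the sequence and not a binding site.

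Xist, the noncoding RNA made from the inactive X chromosome of female cells, divided the kinds. It had UMIs in 11 of 12 collagen-high and 4 of 50 collagen-low cells, and in 78.9% to 86.6% of the other kept barcodes of the 4 libraries. Both called doublets were among those 4 collagen-low cells, with 9 and 6 Xist UMIs and 3 and 13 Ptprc UMIs. Another had 5 Xist and 12 Ptprc UMIs, and the last had 1 Xist and 0 Ptprc UMIs. The collagen-high cells had 611 and 698 CPM of Xist in liproxstatin replicates 1 and 2 and 301 CPM in control replicate 2. The collagen-low cells had 0 and 28.0 CPM in liproxstatin replicates 1 and 2, and 0 and 9.83 CPM in control replicates 1 and 2. After thinning to 9500 UMIs, 10 of 11 collagen-high and 4 of 48 collagen-low cells had a UMI, so the split remained at equal depth.

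Rhox5, an X-linked homeobox gene known mainly from reproductive tissues, showed the reverse. It had UMIs in 2 of 12 collagen-high and 47 of 50 collagen-low cells, with 3.46 CPM in collagen-high and 453 CPM in collagen-low cells. Collagen-low libraries agreed closely, at 502 and 390 CPM in liproxstatin replicates 1 and 2 and 402 and 508 CPM in control replicates 1 and 2. Epcam, Krt8, Krt19 and Cdh1, defining genes of epithelial cells, were at 0 in all 62 cells, and 7 of the 10 genes on the epithelial and carcinoma list were at 0. Krt18 had 9 UMIs, Krt20 11 and Areg 23.

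By levels and by the detection of several single genes, the label of tumour fibroblast therefore holds less well for most collagen-low cells. Thy1, which picked the collagen-high cluster, had UMIs in 3 of 50 of them. Of the other fibroblast genes, Lum had UMIs in 11 of 50, Pdgfra in 25 of 50 and Pdgfrb in 37 of 50 collagen-low cells. The counts in collagen-high cells were 8 of 12, 9 of 12 and 11 of 12, in the same order. Dcn did not part the kinds, with UMIs in 49 of 50 collagen-low and 12 of 12 collagen-high cells. Thinned to 9500 UMIs, Pdgfra was in 9 of 11 collagen-high and 11 of 48 collagen-low cells. A combined count parted the kinds little. At least 2 of the 6 genes Dcn, Lum, Pdgfra, Pdgfrb, Thy1 and Pdpn had UMIs in 45 of 50 collagen-low and 12 of 12 collagen-high cells. The collagen-low cells are referred to by their leading genes and not given a cell type. Whether they come from the mouse or from the implanted line was not tested.

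Traces of leukocyte RNA were present in both kinds. Ptprc, which encodes CD45, had UMIs in 2 of 12 collagen-high and 9 of 50 collagen-low cells, at 3.46 and 22.4 CPM in the same order, compared with 442 CPM in the other kept barcodes. The 8 leukocyte genes of the list summed to 268 CPM in collagen-high cells, 524 CPM in collagen-low cells and 9107 CPM in the other kept barcodes. By library, this sum was 300 and 639 CPM in gated cells of liproxstatin replicates 1 and 2, and 116 and 458 CPM in those of control replicates 1 and 2. The 10 macrophage genes summed to 379 and 1426 CPM in liproxstatin and 278 and 414 CPM in control libraries. Liproxstatin replicate 2 was the highest for both lists, and 1 collagen-low cell with 12 Ptprc UMIs held 550 of its 631 UMIs of the macrophage gene Lyz2. Lyz2 had 1156 CPM in that library's gated cells, and 158 CPM without this cell. Of 10 endothelial markers 7 were at 0 in all gated cells, Cdh5, Kdr and Vwf included.

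Over the list of ferroptosis defence, 1 of 14 measured members was at least 2-fold higher in collagen-high cells and 2 in collagen-low cells, beside 9.42% and 9.52% of all genes, so the list as a whole did not stand apart. Fth1, the ferritin heavy chain, had 3237 CPM in collagen-high and 19658 CPM in collagen-low cells. The collagen-low values were 18356 and 19408 CPM in liproxstatin replicates 1 and 2, and 12971 and 22160 CPM in control replicates 1 and 2, so every library exceeded the highest collagen-high library, at 3935 CPM. Gclm, the modifier subunit of the enzyme that starts glutathione synthesis, had 13.9 CPM in collagen-high and 116 CPM in collagen-low cells. Mgst1, a membrane-bound glutathione transferase, ran the other way, with 315 CPM in collagen-high and 8.55 CPM in collagen-low cells. Gpx4 had 501 CPM in collagen-high and 670 CPM in collagen-low cells.

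Of 18 measured interferon-stimulated genes, 2 were at least 2-fold higher in collagen-high cells and 7 in collagen-low cells. Over all genes these shares were 9.42% and 9.52%, so the count of 2 was near the share of all genes. Cxcl9, a T cell attractant, had 1659 CPM in collagen-high and 25.7 CPM in collagen-low cells, and 431 and 376 of its 997 UMIs lay in 2 cells. Bst2, an antiviral membrane protein, had 341 CPM in collagen-high and 830.4 CPM in collagen-low cells. H2-D1, a class I antigen presentation gene, had 5385 CPM in collagen-high and 4842 CPM in collagen-low cells.

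The gated cells made up 0.0608% and 0.241% of the kept barcodes of liproxstatin replicates 1 and 2, and 0.180% and 0.437% of those of control replicates 1 and 2. The exact 95% binomial intervals were 0.0197% to 0.142% and 0.149% to 0.368% for the liproxstatin libraries, and 0.0725% to 0.371% and 0.293% to 0.627% for the control libraries. The mean was 0.151% ± 0.128 in liproxstatin and 0.309% ± 0.182 in control tumours (SD, n = 2 each), a difference of -0.158 percentage points, and the libraries of the groups overlapped. The two-sided exact permutation p was 0.6667, and 2 libraries against 2 cannot give less than 2 in 6. The intervals cover counting error only, and replicate 2 was the higher library in both groups. Collagen-low cells alone made up 0.127% ± 0.128 in liproxstatin and 0.248% ± 0.0963 in control tumours (exact permutation p = 0.6667).

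**Figure D3:**
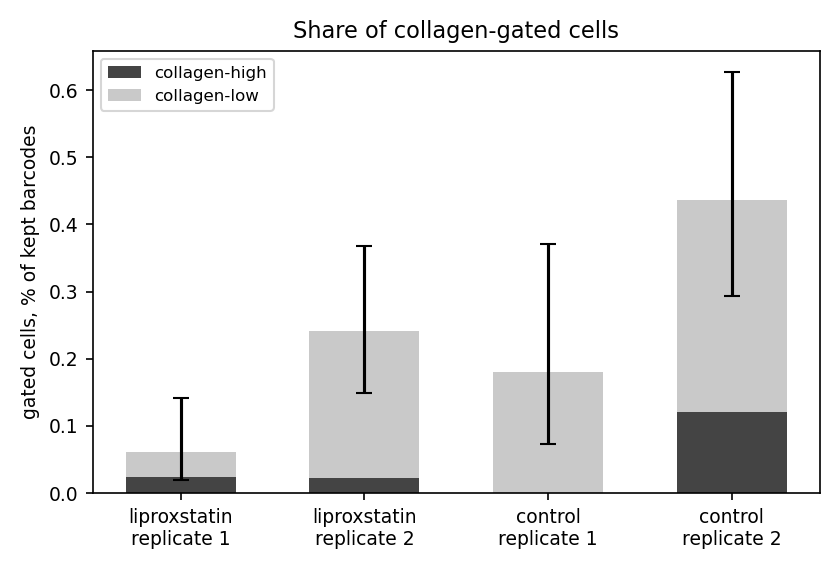
Bars give the share of kept barcodes that passed the collagen gate in each library, divided into collagen-high (dark) and collagen-low (light) cells, and error bars are exact 95% binomial intervals of the total. Liproxstatin replicate 1 was lowest at 0.0608%, control replicate 2 highest at 0.437%, and the groups overlapped.

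For the effect of treatment on genes, libraries with at least 20 gated cells were to be used, and these were liproxstatin replicate 2 and control replicate 2. With 1 library per group there was no test. Of 4108 genes with at least 50 UMIs over both, 72 (1.75%) had at least 2-fold higher CPM + 10 in liproxstatin replicate 2 than in control replicate 2, and 200 (4.87%) at least 2-fold lower. Matrix genes were among the lower ones, with 7 of 13 collagens outside the rule, 13 of 17 proteoglycans and matricellular genes and 7 of 13 inflammatory chemokines and cytokines at least 2-fold lower, and 0, 1 and 1 at least 2-fold higher. Collagen-high cells were 9.52% of the gated cells in liproxstatin replicate 2 and 27.6% in control replicate 2. In collagen-high cells, the collagens outside the rule summed to 7530 CPM in liproxstatin replicate 2 and 6565 CPM in control replicate 2. In collagen-low cells they summed to 630.1 CPM in liproxstatin replicate 2 and 679 CPM in control replicate 2. Proteoglycan and matricellular genes summed to 25122 CPM in liproxstatin replicate 2 and 29767 CPM in control replicate 2 in collagen-high cells, and to 6551 CPM and 6290 CPM, in the same order, in collagen-low cells. Inflammatory genes summed to 7268 CPM and 6768 CPM in collagen-high cells in the same order, and to 1352 CPM and 2782 CPM in collagen-low cells. The collagen-high values of liproxstatin replicate 2 come from 2 cells. The part of the share of collagen-high cells in the lower values of these lists was not tested. None of the 13 measured genes of ferroptosis defence reached a 2-fold difference in either direction, and their median log2 ratio was -0.35, beside -0.05 over all 4108 genes.

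A test over all 4 libraries, chosen after the cell numbers were known, called 0 of 4918 genes higher (0%) and 0 lower (0%) in liproxstatin than in control gated cells at an adjusted p under 0.05 (edgeR quasi-likelihood test with Benjamini-Hochberg adjustment). 87 genes had an unadjusted p under 0.05, and DESeq2 also called 0. In the 50 collagen-low cells alone, edgeR called 0 of 4512 genes higher (0%) and 0 lower (0%), with 137 at an unadjusted p under 0.05. Liproxstatin replicate 1 entered with 5 gated and 3 collagen-low cells, and calls appeared when single libraries were left out. Without liproxstatin replicate 1, 16 genes were called in all gated cells, and without liproxstatin replicate 2 there were 34. Without control replicate 1 there were 5, and without control replicate 2 there were 4. In collagen-low cells the same omissions gave 1 without liproxstatin replicate 1, 5 without liproxstatin replicate 2, 22 without control replicate 1 and 21 without control replicate 2.

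The genes with the lowest p in each direction are given as values. Clec3b, which encodes tetranectin, a plasminogen-binding protein of adventitial fibroblasts, had 109 and 76.0 CPM in collagen-low cells of liproxstatin replicates 1 and 2, and 0 and 7.02 CPM in those of control replicates 1 and 2. The 4 libraries gave 8 and 38 UMIs under liproxstatin and 0 and 5 in control. The groups did not overlap, but 1 liproxstatin cell held 19 of the 52 Clec3b UMIs of the gate. The log2 fold change was 3.96 ± 0.67 (SE) in collagen-low cells, with an edgeR adjusted p of 0.254.

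Sgk1, a kinase gene that glucocorticoids and osmotic stress induce, had 407 and 320.0 CPM in collagen-low cells of liproxstatin replicates 1 and 2, and 98.5 and 59.0 CPM in those of control replicates 1 and 2. Its log2 fold change was 2.19 ± 0.38 (SE), with an edgeR adjusted p of 0.254. Wee1, a kinase that delays mitosis, had 94.97 and 90.01 CPM in the liproxstatin and 8.56 and 23.9 CPM in the control libraries, with a log2 fold change of 2.23 ± 0.50 (SE) and an edgeR adjusted p of 0.874. Tnfaip3, an inhibitor of NF-kappaB signalling, had 54.3 and 46.0 CPM in the liproxstatin and 12.8 and 19.7 CPM in the control libraries. All 3 genes were higher in both liproxstatin libraries than in either control library, without passing the adjusted test. In replicate 1, Tnfaip3 rested on 4 UMIs under liproxstatin and 3 in control, and Wee1 on 7 and 2.

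Hpgd, which encodes the enzyme that inactivates prostaglandins, came from collagen-high cells alone, since collagen-low cells had 0 UMIs of it in every library. It had 16 and 16 UMIs in gated cells of liproxstatin replicates 1 and 2, and 0 and 4 in those of control replicates 1 and 2. Control replicate 1 had 0 collagen-high cells. Hp, the haptoglobin gene, had 8 and 26 UMIs in the liproxstatin and 0 and 6 in the control libraries.

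On the lower side stood Agt, which encodes angiotensinogen, the precursor of angiotensin. It had 0 and 24.0 CPM in collagen-low cells of liproxstatin replicates 1 and 2, and 201 and 125 CPM in those of control replicates 1 and 2, with a log2 fold change of -3.01 ± 0.58 (SE) and an edgeR adjusted p of 0.449. Mtap, the gene of a methionine salvage enzyme, had 81.4 and 112 CPM in the liproxstatin and 287 and 261 CPM in the control libraries. Spata7 had 13.6 and 22.0 CPM in the liproxstatin and 81.3 and 77.2 CPM in the control libraries, with 1 UMI in liproxstatin replicate 1. The other 3 named by lowest p, Snhg6, Mir100hg and Tpcn1, had log2 fold changes between -1.49 and -1.02 in collagen-low cells. None of these 6 passed the adjusted test.

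Beside them, 664 of the 4512 tested genes were higher and 842 lower in both liproxstatin libraries than in either control library, so a lack of overlap was common in these data. Gpx4, the main lipid peroxidase that guards against ferroptosis, had 475 and 634 CPM in collagen-low cells of liproxstatin replicates 1 and 2, and 518 and 765 CPM in those of control replicates 1 and 2. The groups overlapped, and the log2 fold change was -0.23 ± 0.34 (SE; edgeR adjusted p = 0.999). Slc7a11, the cystine importer, had 0 and 6 UMIs in gated cells of the liproxstatin libraries and 0 and 5 in those of the control libraries, and was too low to test. Of the 21 genes of ferroptosis defence, 13 passed the filter on low counts in collagen-low cells and 0 were called. 11 of the 13 had a negative log2 fold change, beside 2333 of all 4512 genes. The median of the 13 was -0.15, beside -0.02 over all genes. Fth1 had a log2 fold change of 0.06 ± 0.24 (SE; edgeR adjusted p = 0.999).

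**Figure D4:**
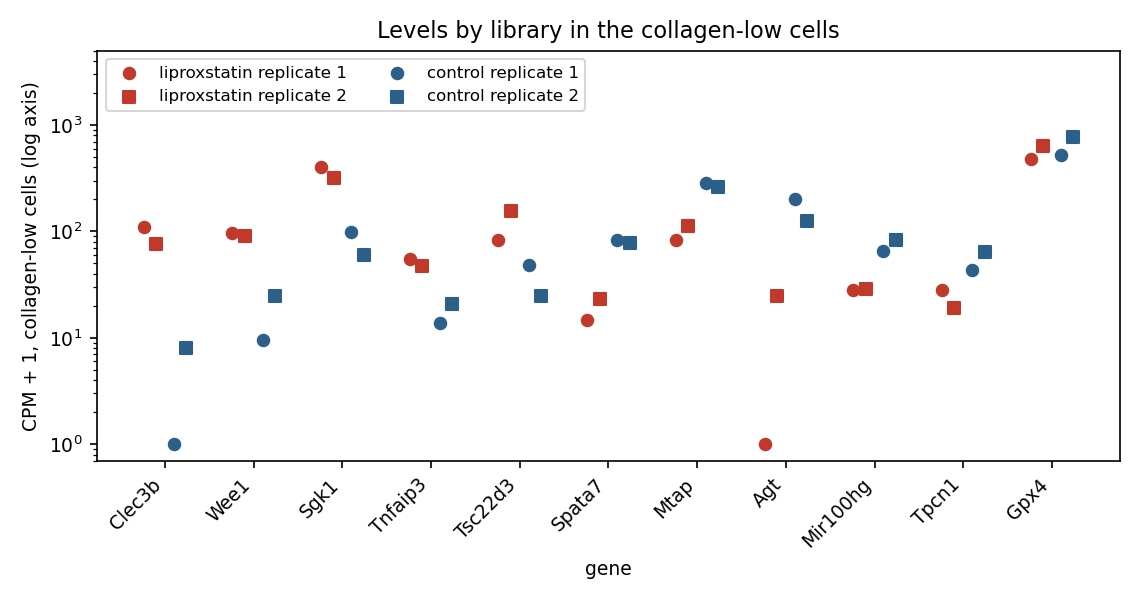
Points give CPM + 1 on a log axis in the summed collagen-low cells of each library for 11 genes, liproxstatin in red and control in blue, circles for replicate 1 and squares for replicate 2. Clec3b, Wee1, Sgk1, Tnfaip3 and Tsc22d3 were higher and Spata7, Mtap, Agt, Mir100hg and Tpcn1 lower in both liproxstatin libraries, and Gpx4 overlapped. None passed the adjusted test. Liproxstatin replicate 1 rested on few UMIs, with 1 of Spata7, 2 each of Mir100hg and Tpcn1, 4 of Tnfaip3 and 6 of Tsc22d3.

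Glucocorticoid-inducible genes, a list that includes Sgk1, had 12 of 15 members tested in collagen-low cells and 0 called. 11 of the 12 had a positive log2 fold change, beside 2179 of all 4512 genes. The median was 0.77, beside -0.02 over all genes, and 6 had an unadjusted p under 0.05, beside 137 of all 4512 genes. Tsc22d3, whose product is the glucocorticoid-induced leucine zipper protein, had 81.4 and 156 CPM in the liproxstatin and 47.1 and 23.9 CPM in the control libraries, with a log2 fold change of 2.00 ± 0.49 (SE; edgeR adjusted p = 0.893). Cebpd, a transcription factor gene of the acute phase, had 312 and 590.1 CPM in the liproxstatin and 94.2 and 188 CPM in the control libraries. Fkbp5, a co-chaperone of the glucocorticoid receptor, had 81.4 and 50.01 CPM in the liproxstatin and 34.2 and 42.1 CPM in the control libraries. The receptor gene itself, Nr3c1, had a log2 fold change of 0.24 ± 0.37 (SE). In the C1q macrophages of the same libraries, Tsc22d3 was called higher under liproxstatin (log2 fold change 1.18, edgeR adjusted p = 0.00127). Klf9, also of this list, was called there too (1.14, edgeR adjusted p = 0.00337). A rise of these 2 genes was thus not particular to the collagen-low cells. The part of free RNA in the collagen-low values was not tested.

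Immediate early and heat shock genes, which dissociation of tissue also induces, had 15 of 20 members tested in collagen-low cells and 0 called. 13 of the 15 had a positive log2 fold change, beside 2179 of all 4512 genes. The median was 0.59, beside -0.02 over all genes, and 6 had an unadjusted p under 0.05, beside 137 of all 4512 genes. Dnajb1, a co-chaperone of Hsp70, had 285 and 532 CPM in collagen-low cells of liproxstatin replicates 1 and 2, and 184 and 71.6 CPM in those of control replicates 1 and 2. Dusp1 belongs to both lists. The part of dissociation in the values of the glucocorticoid list was not tested.

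Among antigen presentation genes in collagen-low cells, Cd74, the invariant chain of class II molecules, had 217 and 230.0 CPM in the liproxstatin and 98.5 and 51.9 CPM in the control libraries (log2 fold change 1.63 ± 0.40 SE, edgeR adjusted p = 0.893). The other kept barcodes had 4064 CPM of Cd74, and the part of their free RNA in this difference was not tested. The collagen list had 11 of 18 members tested in collagen-low cells, 0 called and a median log2 fold change of -0.13. Col1a2 had 1384 and 1168 CPM in the liproxstatin and 1070 and 1048 CPM in the control libraries, a log2 fold change of 0.21 ± 0.27 (SE). Proteoglycan and matricellular genes had 11 of 20 members tested, 0 called and a median of 0.27. For Aspn and Ogn the log2 fold changes were 0.67 ± 0.33 and 0.85 ± 0.33 (SE; edgeR adjusted p = 0.999 for each).

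Whether the response of the gated cells differed from that of macrophages was asked with an interaction term in a fit that paired both cell groups of a library. The macrophages were 12866 cells with at least 10 C1q UMIs per 10000. The difference was positive for 8 of 13721 genes (0.0583%) and negative for 8 (0.0583%) at an adjusted p under 0.05 (edgeR quasi-likelihood test). Leaving out liproxstatin replicate 2 gave 48 such genes, control replicate 1 gave 25 and control replicate 2 gave 62, and with gated cells that had 0 Ptprc UMIs there were 6. 8 of the 16 also passed the filter on low counts in the gated cells alone. The other 8, among them Gzmc, Prf1, Fabp5 and Cybb, did not pass that filter, and the 44 gated UMIs of Gzmc all lay in control replicate 2.

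Mgp had 311 and 3428 CPM in gated cells of liproxstatin replicates 1 and 2, and 2539 and 2794 CPM in those of control replicates 1 and 2. In macrophages it had 2.90 and 19.0 CPM in the liproxstatin and 2.92 and 8.17 CPM in the control libraries. The difference in log2 fold change, gated cells minus macrophages, was -1.97 ± 0.35 (SE; edgeR adjusted p = 0.000276). Mgp itself was not called in the gated cells. It was in 6.08% to 15.9% of macrophages, and the part of free RNA in their levels was not tested. Without liproxstatin replicate 1 or without control replicate 1 the difference was not called.

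Clec3b had 50.9 and 69.6 CPM in gated cells of the liproxstatin and 0 and 4.38 CPM in those of the control libraries. Macrophages had 0.541 and 0.297 CPM in the liproxstatin and 0.874 and 1.56 CPM in the control libraries. The difference in log2 fold change was 5.95 ± 1.20 (SE; edgeR adjusted p = 0.00317), and it was called in 7 of 9 alternatives but not without liproxstatin replicate 2 or without control replicate 2. Agt had 0 and 22.0 CPM in gated cells of the liproxstatin and 201 and 78.0 CPM in those of the control libraries, with a difference of -4.45 ± 0.95 (SE; edgeR adjusted p = 0.00626). Macrophages held at most 10 Agt UMIs in any library, and the difference was not called without liproxstatin replicate 1, without control replicate 1 or without the highest Scrublet scores. Agt was too low in macrophages to be fitted in them alone. Clec3b had a macrophage log2 fold change of -1.53 ± 0.37 (SE; edgeR adjusted p = 0.0848). That value rests on at most 1.56 CPM and enters the Clec3b difference. The differences of Mgp, Clec3b and Agt were also called when collagen-low cells stood in for the gate.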

How the data were processed

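Cells of CT26 tumours selected for CD45 were profiled by droplet sequencing of RNA in 4 libraries, 2 per group. The deposited matrices hold UMI counts per gene and barcode (32285 genes), not normalised. The software is Cell Ranger 6.1.1 per the file headers and Cell Ranger 4 with build mm10 per the submitters' processing notes, and which made the matrices is not settled. Other deposited files list barcodes and genes only. Because counts are of molecules, genes with near-identical copies can lose reads, and free RNA and depth affect detection.

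Barcodes with at least 200 genes and less than 15% mitochondrial UMIs were kept, and the marker rule was applied. Doublets were called with Scrublet scores at a fixed rate of 0.8% per 1000 barcodes, since its own thresholds marked 142, 181, 1 and 2 cells, and the calls were used only in an alternative. Cells were clustered with scanpy 1.11.5 (Leiden; 2000 variable genes, 15 components, 10 neighbours). Counts were summed per library and tested with edgeR 4.0.16 (TMM scaling, filterByExpr, quasi-likelihood F test, Benjamini-Hochberg adjustment, threshold 0.05) in R 4.3.3, with DESeq2 1.42.0 as an alternative. Each SE of a log2 fold change or of a difference was derived from the F statistic, as the size of the value divided by the square root of F. The fits were checked on simulated counts. Shares were compared with a two-sided exact permutation test. Intervals are exact (Clopper-Pearson) at 95% and cover counting error only, and the limit for a count of 0 is 3 counts.

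The intended treatment comparison required 20 gated cells per library, which 2 libraries reached, and it therefore has no test. The fits over 4 libraries and over collagen-low cells were chosen after seeing the data. The marker rule, gene lists and tests were chosen with earlier results of these data known. Genes named are the 15 leading genes, up to 5 members of a list by mean level, the 6 with the lowest unadjusted p in each direction (leaving out predicted, ribosomal, mitochondrial and antigen receptor genes), and Gpx4, Slc7a11, Tsc22d3 and Xist. Other genes were chosen after their values were seen, among them Rhox5, Gclm, Mgst1 and the genes with a call in the interaction. Replicate numbers come from the labels, which state no pairing, so they were not used to link samples. Same-numbered libraries deviated with correlations of -0.36 in gated and 0.13 in collagen-low cells. With 2 libraries per group these values cannot decide whether the numbers pair samples. Gene positions are from GENCODE M21 (GRCm38), where 16 of 16 genes matched, and promoters from RefSeq (GRCm38.p6), where 3 were matched. Alternatives changed the scaling, the filter on low counts, the test, the block, the cells and the libraries.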

Additional observations from a re-analysis of the deposited data

Results flagged for a closer look

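For 8 genes that passed the filter on low counts in the gated cells, the interaction of liproxstatin with cell group, gated cells or C1q macrophages of the same libraries, passed the test (edgeR, adjusted p under 0.05). Clec3b, Agt, Ccn2, Cyp26b1 and Hpgd had at most 1.56 CPM in macrophages of any library, and Agt was too low for a fit in macrophages alone. The macrophage log2 fold changes were -1.53 for Clec3b, 1.22 for Ccn2, 0.61 for Cyp26b1 and -1.26 for Hpgd. These enter the differences, and none of them was called in macrophages. None of the 8 genes was called in the gated cells alone. The values that follow are log2 fold changes in gated cells minus those in macrophages, with SE. Mgp had -1.97 ± 0.35 (edgeR adjusted p = 0.000276), Clec3b 5.95 ± 1.20 (0.00317) and Agt -4.45 ± 0.95 (0.00626), and their levels per library stand in the report.

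Ccn2, a matricellular growth factor target, had 17.0 and 106 CPM in gated cells of liproxstatin replicates 1 and 2, and 34.2 and 323 CPM in those of control replicates 1 and 2. Its difference was -2.77 ± 0.62 (edgeR adjusted p = 0.0118), and the groups of libraries overlapped. Cyp26b1, an enzyme that breaks down retinoic acid, had 5.65 and 31.1 CPM in the liproxstatin and 29.97 and 219 CPM in the control libraries, with a difference of -3.09 ± 0.72 (edgeR adjusted p = 0.0170). Neither was called in collagen-low cells, without liproxstatin replicate 1, without control replicate 2 or without the highest Scrublet scores, and Ccn2 also not with 0 Ptprc UMIs, so that 4 and 5 of 9 alternatives called Ccn2 and Cyp26b1. The collagen-high cells were 2 and 2 under liproxstatin and 0 and 8 in control.

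Hpgd had 90.5 and 29.3 CPM in gated cells of the liproxstatin and 0 and 3.51 CPM in those of the control libraries, with a difference of 5.39 ± 1.33 (edgeR adjusted p = 0.0415). It was called in 3 of 9 alternatives and lost with no filter on low counts, without liproxstatin replicate 1, without either control replicate, without the highest Scrublet scores and in collagen-low cells.

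Pycard, the inflammasome adaptor, had 147 and 33.0 CPM in gated cells of the liproxstatin and 4.28 and 16.7 CPM in those of the control libraries, with a difference of 2.49 ± 0.56 (edgeR adjusted p = 0.0118). Ctss, a lysosomal protease of macrophages, had 45.2 and 172 CPM in the liproxstatin and 21.4 and 36.8 CPM in the control libraries, with a difference of 1.62 ± 0.39 (edgeR adjusted p = 0.0341). Macrophages had between 2361 and 2556 CPM of Ctss, and neither gene was called among gated cells with 0 Ptprc UMIs or without control replicate 1. Pycard was also not called without liproxstatin replicate 1 or in collagen-low cells, and Ctss not without liproxstatin replicate 2 or without the highest Scrublet scores. The part of macrophage RNA in these 2 differences was not tested.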

How the results depend on the processing

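The difference in share kept its sign in every alternative, from -0.286 percentage points without control replicate 1 to -0.0294 without control replicate 2. Between 1 library of each group, no filter on low counts gave 186 genes higher and 405 lower. The 4-library fit of all gated cells called 15 genes with no filter, and 4 to 34 when 1 library was left out. The collagen-low fit called 19 with no filter and 1 to 22 when 1 library was left out, where a lone library is assumed to vary like the others. The interaction with macrophages had 6 calls with 0 Ptprc UMIs and 17 to 62 when 1 library was left out. The causes of these changes were not tested.

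The Gpx4 fold change of all gated cells, -0.06, was 0.085 with collagen at least 20 per 10000 and 0.050 with equal cells per library, and ran from -0.30 to 0.12 when 1 library was left out. The replicate block called 0 genes in gated and collagen-low cells, as without it. With crossed numbers, 0 genes were called in gated cells and 5 in collagen-low cells. Of the values of single named genes, 216 kept direction and side of the threshold, 12 passed it only in an alternative and 4 changed sign. For the comparison of 1 library each, DESeq2, the block, leaving out either library, 0 Ptprc UMIs and collagen at least 20 were not run, since too few cells or no test remained. Few cells per library limit all of these values.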

Other observations

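Of 338 UMIs of Gzma, a granzyme of killer cells, 335 (99.1%) lay in 1 collagen-low cell of control replicate 2, which was a called doublet. The 8 T and NK cell markers summed to 5.65 and 16.5 CPM in gated cells of liproxstatin replicates 1 and 2, and 8.56 and 117 CPM in those of control replicates 1 and 2.

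The 20 cell cycle genes summed to 107 CPM in collagen-high cells, 230 CPM in collagen-low cells and 1153 CPM in the other kept barcodes. By library, gated cells had 102 and 128 CPM in liproxstatin replicates 1 and 2, and 634 and 154 CPM in control replicates 1 and 2, with control replicate 1 the highest from 7 cells. Of the adipocyte list, 4 of 5 genes were at 0, and the fifth, Lpl, a lipase that adipocytes and macrophages also make, had UMIs in 13 gated cells.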
